A study of Homo sapiens with 17 samples.

Results

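The loci around PTPRM, COL22A1 and NKX1-1 hold the strongest peaks that were listed for only one of full-length FOXA1 and FOXA1 with its CTD, the C-terminal domain, deleted. Every peak with a summit within 200 kb of the RefSeq span of these genes was taken from 8 combined peak lists, 1 list for each expressed factor. This gave 214 of 208775 peaks, 123 at PTPRM, 74 at COL22A1 and 17 at NKX1-1. Peaks that overlapped by at least 1 bp were joined into 124 sites, 73, 41 and 10 in the same order. The loci were chosen by the FOXA1 −log10 p values and by presence in one FOXA1 list only, so these values are described without a test. The other 6 lists had no part in the choice.

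The cells were U2OS, an established line from a human osteosarcoma, in which a Tet-on construct drove each Flag-tagged factor and ChIP-seq used the Flag tag. The groups are Tet-on FOXA1, FOXA1dCTD, FOXA2, FOXA2dCTD, FOXA3, FOXA3dCTD, SOX2 and SOX2 fused to the FOXA2 CTD, where dCTD marks a deleted CTD. All were induced with doxycycline at 500 ng/ml for 4 days, with 2 biological replicates each, and 1 input completes the 17 samples. The factors were thus expressed from a transgene in an osteosarcoma line, and the labels do not say whether a line is 1 clone. Each group has 1 list made from both replicates. It gives both replicate values for a listed peak, but a peak absent from a list has no value to set against them. How deeply the libraries were sequenced is unknown.

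FOXA proteins are forkhead factors that can bind their sites in closed chromatin, which is why they are called pioneer factors. Their forkhead domain reads DNA, and the regions on either side of it contact other proteins and histones. SOX2 is a pioneer factor that binds through an HMG domain. PTPRM encodes a receptor tyrosine phosphatase that mediates adhesion between like cells. COL22A1 encodes a collagen found at tissue junctions such as that of muscle and tendon. NKX1-1 encodes a homeobox transcription factor.

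All coordinates are 1-based on hg38, the build in the submitters' processing notes. PTPRM spans chr18:7567316-8406856, a gene of 840 kb on the plus strand, and no other protein-coding gene reaches into its window. NKX1-1 spans only chr4:1402932-1406442, or 3.51 kb, on the minus strand. Its window is crowded and also reaches SPON2, CTBP1, MAEA, UVSSA, FAM53A and LOC124900647, which makes 7 protein-coding genes.

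Peak sequences were not used here, but the RefSeq table of gene starts (GRCh38.p14) holds 2 windows of PTPRM and 1 of NKX1-1. The PTPRM windows are shown because peaks lay on or close to both. The forkhead words searched on both strands were TGTTTAC, the core of the known forkhead site, with TATTTAC as one known variant of it and TGTTTGC as another known variant. The SOX words were ACAATG, the core of known SOX sites, with the known variant ACAAAG. Capitals mark the only match in the sequences.
PTPRM start 1, plus strand, chr18:7567066-7567365: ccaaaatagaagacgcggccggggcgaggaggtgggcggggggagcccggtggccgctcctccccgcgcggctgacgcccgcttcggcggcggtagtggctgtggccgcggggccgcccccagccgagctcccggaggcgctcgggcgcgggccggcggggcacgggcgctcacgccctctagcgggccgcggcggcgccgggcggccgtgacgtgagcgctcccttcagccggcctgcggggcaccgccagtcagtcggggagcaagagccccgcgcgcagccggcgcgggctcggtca
PTPRM start 2, plus strand, chr18:7946625-7946924: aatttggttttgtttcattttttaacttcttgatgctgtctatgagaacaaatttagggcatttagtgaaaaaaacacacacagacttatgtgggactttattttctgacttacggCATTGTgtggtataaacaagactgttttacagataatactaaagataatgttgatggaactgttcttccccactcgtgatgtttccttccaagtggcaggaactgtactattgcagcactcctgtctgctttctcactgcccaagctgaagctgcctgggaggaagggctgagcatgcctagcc
The first window is 80.7% G and C and the second 41.0%. Neither holds any of the 3 forkhead words, as is the case for the NKX1-1 window. Other forkhead variants were not searched. Over all 35116 windows of 300 bases in the table, 9.57% hold a forkhead word and 24.5% a SOX word. The second window holds ACAATG on the reverse strand.

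The strongest FOXA1 peaks near NKX1-1 formed a row of 3 upstream of the gene, all listed only after CTD deletion. Strength means here the lower of both replicate values of −log10 p, a measure of how far the signal rises above background. The peak nearest to the gene, chr4:1427268-1429340, had a −log10 p of 51.8 and 51.1 in the 2 replicates and was rank 9 of 50539 FOXA1dCTD peaks. The middle peak, chr4:1434173-1435733, had 47.0 and 67.2 and rank 14. The farthest, chr4:1441624-1442441, had 52.0 and 51.7 and rank 8. These are the 3 strongest of all FOXA1dCTD peaks that the full-length list lacks, away from the genes of the expressed factors.

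Their summits lay 22.4, 29.0 and 35.4 kb beyond the upstream end of NKX1-1, in a stretch with no protein-coding gene. The spacing was close to even, with 6566 bp between the first pair of summits and 6462 bp between the second. From end to end the row covered 15.2 kb. It held all 3 FOXA1dCTD peaks of the NKX1-1 window.

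Full-length FOXA1 had 3 peaks in the NKX1-1 window, and all were weak. The one closest to the row, chr4:1417406-1417920, had a −log10 p of 4.08 and 3.48 and rank 24880 of 37532. Its summit lay 11049 bp from that of the nearest peak of the row. The others were chr4:1346623-1347456 inside UVSSA, with 3.23 and 4.48, and chr4:1556973-1557573, with 2.62 and 4.48. None of the 3 was found in any other list, so the 2 FOXA1 lists shared no site in this window.

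The lists of FOXA2, which played no part in the choice, held a peak at all 3 places. In the FOXA2 full-length list the nearest site was rank 1 of 45076, with a −log10 p of 39.4 and 56.4. The middle site was rank 2, with 36.6 and 67.4, and the farthest was rank 34, with 19.3 and 49.9. The strongest peaks of the whole full-length FOXA2 list thus lay where full-length FOXA1 had no listed peak. Its summits were 1 to 32 bp from those of FOXA1dCTD. These rows had an irreproducible discovery rate (IDR, low where replicates rank a peak alike) of 0.0137 to 0.0170, and no peak of that list reached 0.01.

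After deletion of the FOXA2 CTD the same sites were listed with replicates far apart. The nearest site had a −log10 p of 35.0 and 7.09, the middle site 47.1 and 6.85, and the farthest 16.3 and 7.74. One replicate was thus strong and the other moderate at each, and the ranks of 3905, 4073 and 3115 of 53415 follow the weaker one. The IDR of these FOXA2dCTD rows was 0.00170, 0.00178 and 0.00200 in the same order, below that of the full-length FOXA2 rows. By that measure the FOXA2dCTD rows were not the less reproducible ones. Of the 1622 FOXA2dCTD peaks with at least 16 in the stronger replicate, 32.7% had less than 8 in the weaker. In the full-length FOXA2 list this was 55.7% of 460. These limits just admit the farthest site, and the share of peaks with gaps as wide as at the nearest and middle sites was not computed. FOXA3dCTD had a peak at the nearest site, chr4:1428604-1429163, with 9.24 and 6.06 and rank 5873 of 6813. The lists of full-length FOXA3, SOX2 and the fusion had none at any of the 3 sites.

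The peak that brought PTPRM into view lay deep inside the gene, 549 kb from its start, and was listed for every FOXA group except FOXA1dCTD. In the full-length FOXA1 list, chr18:8116011-8117385 had a −log10 p of 29.0 and 32.4 and rank 25 of 37532. No FOXA1dCTD summit lay within 40.1 kb of it. The site was also strong for FOXA2dCTD, with 24.2 and 24.6 and rank 54 of 53415. For full-length FOXA2 it had 12.2 and 8.72 and rank 555 of 45076.

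Both FOXA3 lists carried the site as chr18:8116358-8117427 with the same values, 8.61 and 11.1. Rows shared in this way make up 4981 of the 6082 full-length FOXA3 rows on chromosomes 1 to 22 and X, so they count as 1 observation. The summits of the 4 other lists fell 9 to 32 bp from that of FOXA1. SOX2 had no peak there, and the nearest fusion summit was 11006 bp away. Among the FOXA2 lists the site was stronger after CTD deletion in both replicates, while among the FOXA1 lists it was listed only at full length.

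COL22A1 spans chr8:138588235-138914041, or 326 kb, and shares its window with FAM135B. Its leading peak had as high a rank as that of PTPRM but was almost confined to full-length FOXA1 in these 8 lists. In that list, chr8:138691090-138692880 inside COL22A1 had a −log10 p of 29.0 and 38.0 and rank 25, tied with PTPRM. The nearest FOXA1dCTD summit was 99.7 kb away. The only other list with a peak there was FOXA2dCTD, at chr8:138691274-138692246, with 2.42 and 3.19 and rank 39777 of 53415. That summit lay 204 bp from the FOXA1 summit. Full-length FOXA2 had its nearest summit 10.7 kb away and both FOXA3 lists 140 kb away.

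**Figure D1:**
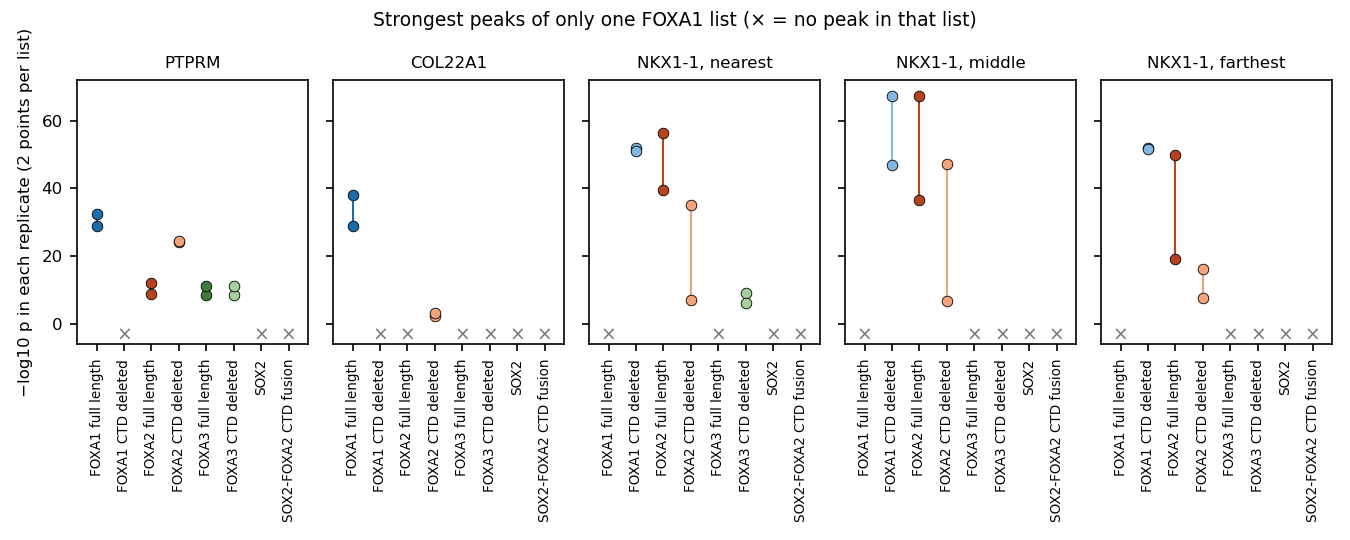
−log10 p in each of both replicates (points joined by a line, vertical axis) at the PTPRM peak, the COL22A1 peak and the 3 peaks upstream of NKX1-1, for the 8 combined lists (horizontal axis). A cross marks a list with no peak: the COL22A1 peak is listed for FOXA1 full length and, at 2.42 and 3.19, for FOXA2 CTD deleted, while both FOXA2 lists have a peak at PTPRM and at all 3 NKX1-1 sites.

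For scale, 44.0% of all full-length FOXA1 peaks lacked a FOXA1dCTD partner and 58.3% of all FOXA1dCTD peaks lacked a full-length one. Among the strongest 1% these shares were 7.61% of 368 and 20.8% of 505, so peaks of this strength were seldom without a partner at full length. Presence in FOXA2 was no rarity among strong unpartnered peaks. Of the 100 strongest FOXA1dCTD peaks without a full-length partner, 81.0% were in the full-length FOXA2 list, 83.0% in that of FOXA2dCTD and 74.0% in both, as all 3 NKX1-1 peaks were. Of the 100 strongest in the other direction these shares were 70.0%, 57.0% and 46.0%. The PTPRM peak was in both FOXA2 lists, and the COL22A1 peak only in the FOXA2dCTD list. At least 1 of the 6 other lists held 89.0% of those full-length peaks and 99.0% of those FOXA1dCTD peaks. The SOX2 list alone held 8.00% and 31.0% of them in the same order. Among all unpartnered peaks it held 0.837% at full length and 1.45% after CTD deletion. The strongest 100 are thus not a reference of FOXA places alone, and no leading peak of the 3 loci was in the SOX2 list.

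The values just outside the choice were close to those inside it after CTD deletion. The next full-length peak without a partner, chr1:122567062-122567667, had a strength of 25.3, against 29.0 for PTPRM and COL22A1. It lay 1104361 bp from the nearest protein-coding gene, at a joined site of 6 lists, SOX2 among them. A FOXA1dCTD peak is part of that site without overlapping this peak. The next FOXA1dCTD peak, chr1:123466707-123467179, had 46.1, against 47.0 for the weakest of the NKX1-1 row. It lay 2003859 bp from such a gene, at a site of 7 lists, again with SOX2. Whether these chromosome 1 places are repeated centromere sequence was not checked here, so they are not read as binding sites of these factors. The next peaks inside a protein-coding gene had 20.7, in NCAM1 at full length, and 42.2, in EXD3 after CTD deletion. The choice also rests on the measure: by the stronger replicate in place of the weaker, 0 of the 4 leading peaks stay among the 2 strongest of their direction. Full-length FOXA1 would then be led by chr6:117922796-117924953, with 55.7 and 16.2 in its replicates.

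**Figure D2:**
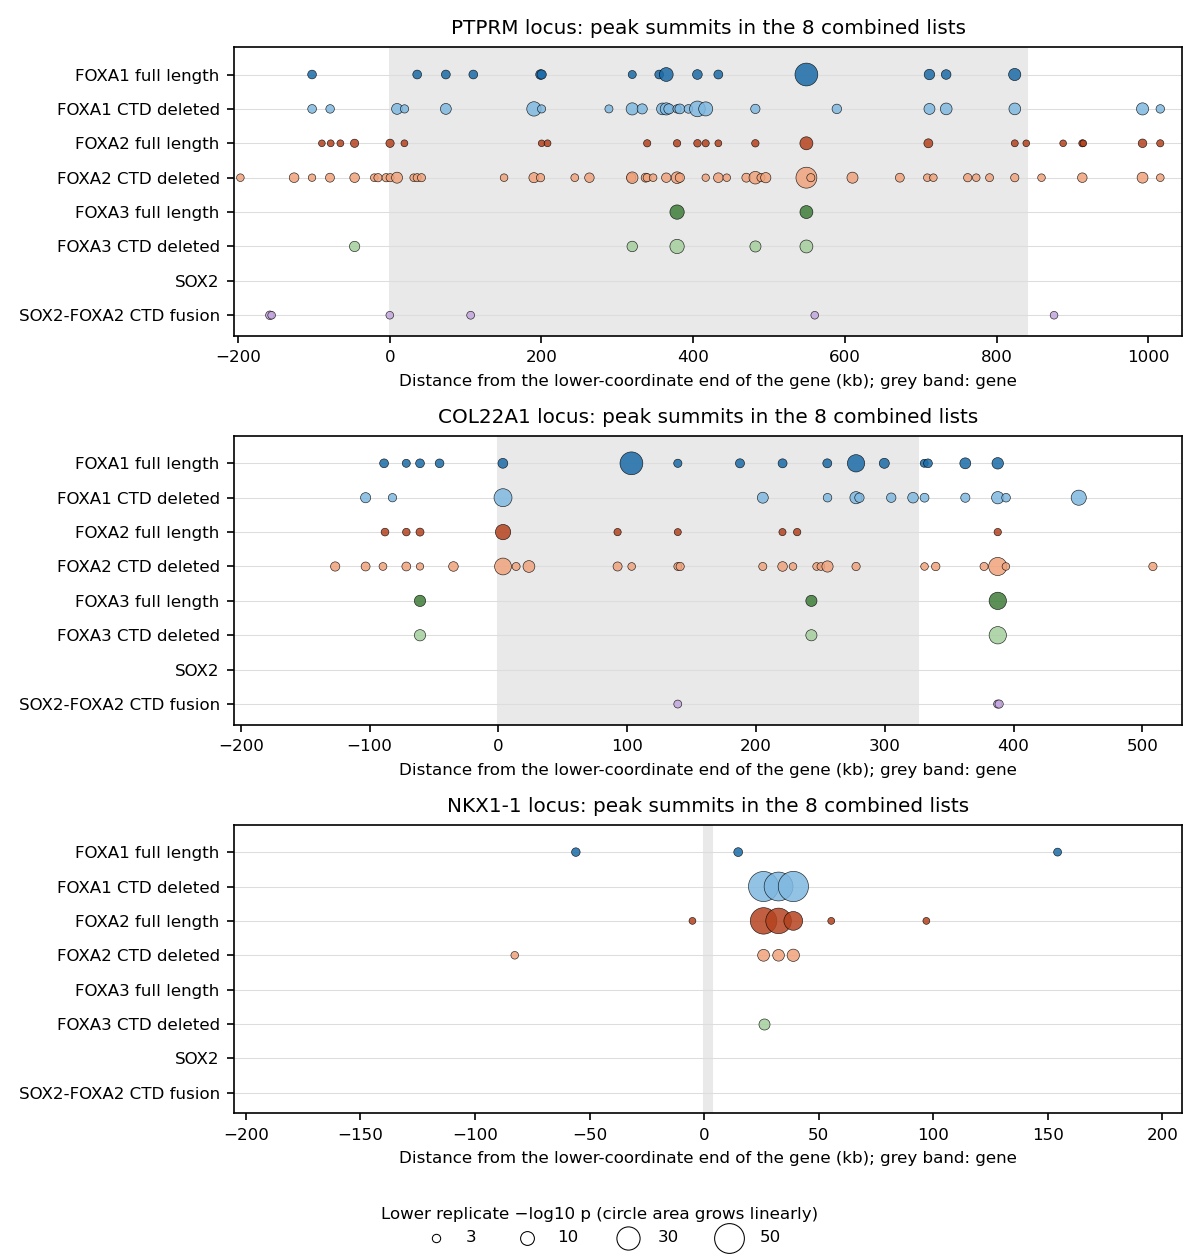
Every peak summit of the 3 loci (circles) by distance from the lower-coordinate end of the gene in kb (horizontal axis) and by list (rows), with the gene as a grey band and circle area growing with the lower replicate −log10 p. At NKX1-1 the row of 3 strong sites is seen for FOXA1 CTD deleted and both FOXA2 lists. At PTPRM and COL22A1 the FOXA2 CTD-deleted list as deposited has 47 and 26 peaks. At an IDR of at most 0.01 these fall to 6 and 4, below the 14 and 10 of FOXA1 CTD deleted. That limit leaves 6523 peaks in the whole FOXA2 CTD-deleted list and 26826 in that of FOXA1 CTD deleted.

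Along the rest of PTPRM, 54 of the 73 sites had a summit inside the gene. In the lists as deposited, FOXA2dCTD had 47 peaks, FOXA1dCTD 25, full-length FOXA2 23 and full-length FOXA1 15. At an IDR of at most 0.01 the order of the first pair reverses, with 14 for FOXA1dCTD and 6 for FOXA2dCTD. The whole lists reverse too, with 26826 and 6523 peaks left. As deposited, FOXA3dCTD had 5, full-length FOXA3 2, the fusion 6 and SOX2 none. The fusion list holds peaks up to an IDR of 0.920, and none of its peaks here stayed at 0.01. The whole SOX2 list has only 0.451 peaks per Mb, so its absence from a window of 1.24 Mb says little. FOXA2dCTD alone accounted for 26 of the sites. A total of 27 sites were in 2 or more lists, a share with a Wilson 95% interval of 26.8% to 48.5%, beside 45.6% of all 108696 sites of chromosomes 1 to 22 and X. That share lies inside the interval. The interval covers counting error only and treats neighbouring sites as independent. A difference in recurrence from sites elsewhere was not tested.

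A pair of PTPRM sites was in 5 lists. One is the peak described above. The other, chr18:7945861-7946516, ends 109 bp before the second start window printed above and was in every FOXA list except full-length FOXA1. Both FOXA3 lists had it as an identical row with a −log10 p of 10.8 and 12.6, their strongest in the locus, and FOXA2dCTD had 7.88 and 6.85. Full-length FOXA2 had 2.11 and 2.32 there, and FOXA1dCTD 3.01 and 4.83. With the shared FOXA3 row counted once, both sites rest on 4 observations, as many as 3 further sites of the locus that were in 4 lists.

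The first start of PTPRM carried weaker peaks. The fusion peak chr18:7566993-7567716 covered the whole first window, with a −log10 p of 2.41 and 7.57 and rank 6812 of 7895. Its IDR was 0.501. Full-length FOXA2 had chr18:7567382-7567854, just past the window, with 3.84 and 2.96. FOXA2dCTD had chr18:7567559-7567880, with 2.80 and 3.13. No FOXA1 or FOXA3 peak overlapped this site.

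Next to the leading peak, full-length FOXA1 was strongest in PTPRM at chr18:7931392-7932132, with 10.5 and 10.0, and at chr18:8390992-8391696, with 9.08 and 7.55. Both were also in the FOXA1dCTD list, at 10.7 and 7.53 and at 6.95 and 12.5. FOXA1dCTD was strongest at chr18:7972584-7973657, with 13.2 and 20.9, where full-length FOXA1 had 7.27 and 4.43. Its next peaks had no overlapping full-length peak: chr18:7756838-7757747 had 10.9 and 17.0, and chr18:7983578-7984666 had 10.4 and 17.2. FOXA2dCTD was present at both of these. Apart from the leading peak, the 5 full-length peaks of PTPRM without a partner were weak, from 3.41 to 4.33, while the 16 of FOXA1dCTD ran from 2.76 to 10.9.

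COL22A1 had 41 sites, 21 of them with a summit inside the gene. Full-length FOXA1 had 16 peaks, FOXA1dCTD 14, FOXA2dCTD 26 and full-length FOXA2 9. Both FOXA3 lists had the same 3 peaks, the fusion 3 and SOX2 none. Sites in 2 or more lists made up 39.0% (25.7 to 54.3). Sites in 5 or more lists were 2 of 41 here, 2 of 73 at PTPRM and 0 of 10 at NKX1-1, beside 4.01% of all sites.

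The most widely listed site of the 3 loci lay beyond the upper-coordinate end of COL22A1, at chr8:138975328-138976351. It was in 7 lists, all but SOX2. FOXA2dCTD had 18.0 and 18.1 there, rank 175 of 53415, and both FOXA3 lists an identical row with 16.3 and 20.7. FOXA1 had it at full length with 6.59 and 6.79 and after CTD deletion with 7.75 and 13.2, with summits 10 bp apart. Full-length FOXA2 had 5.85 and 2.12, and the fusion 2.77 and 3.85. Their IDR was 0.289 and 0.741, so the replicates agreed poorly there. At an IDR of at most 0.01 the fusion had no peak in the locus. The site is thus strong for FOXA2dCTD and FOXA3, and moderate for both FOXA1 forms.

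At the lower-coordinate end, inside COL22A1, both FOXA1 and both FOXA2 lists met at chr8:138591401-138592344. FOXA1dCTD had 17.6 and 19.5 there, its strongest peak of the locus and rank 404 of 50539. Full-length FOXA1 had 10.9 and 4.60, full-length FOXA2 12.5 and 14.9, and FOXA2dCTD 15.3 and 15.6. The opposite order was seen at chr8:138865105-138866316, where full-length FOXA1 had 23.1 and 16.3 and FOXA1dCTD 7.53 and 11.2. FOXA2dCTD was also listed there, with 8.45 and 2.96. One strong FOXA1dCTD peak stood alone, chr8:139038544-139039209, with 12.2 and 14.4 and no peak of any other list. The second site in 5 lists, chr8:138527211-138528031, lay between FAM135B and COL22A1 and lacked FOXA1dCTD, SOX2 and the fusion.

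Where both FOXA1 lists had a peak, in 9 pairs at PTPRM and 6 at COL22A1, the summits lay 10 to 235 bp apart, with a median of 44.0 bp. The weaker replicate was higher after CTD deletion in 9 of the 15 pairs, beside 56.0% of all 20987 FOXA1 pairs. In 6 pairs both replicate values after CTD deletion exceeded both at full length, beside 17.7% of all pairs. In 1 pair, the COL22A1 site at chr8:138865105-138866316, both full-length values were higher, beside 5.24%. Since p-values grow with depth, these counts do not compare occupancy.

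**Figure D3:**
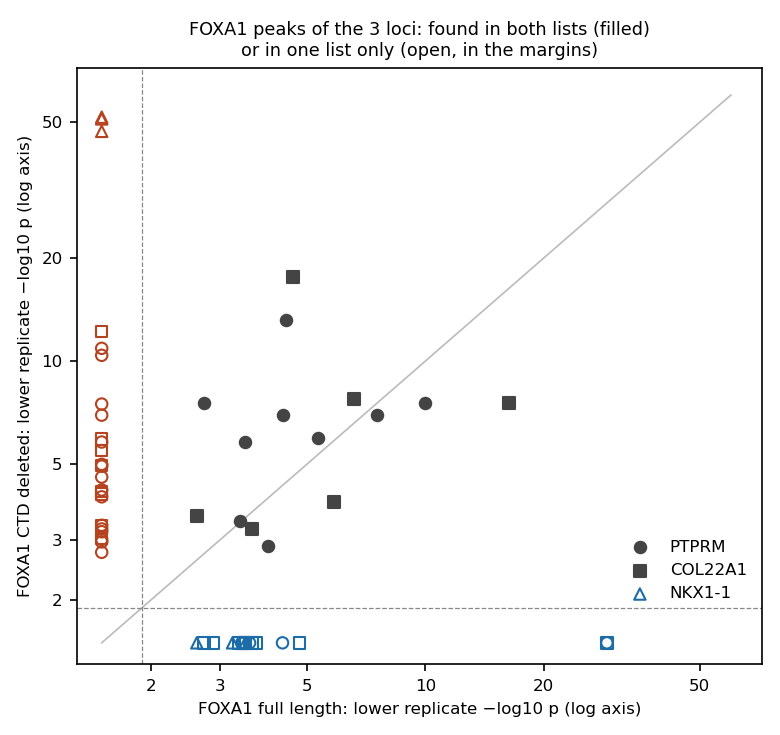
Lower replicate −log10 p of FOXA1 peaks at full length (horizontal, log axis) and after CTD deletion (vertical, log axis), with filled symbols for the 15 overlapping pairs and open symbols in the margins for peaks of one list only. The 3 NKX1-1 peaks at 47.0 to 51.7 and the PTPRM and COL22A1 peaks at 29.0, drawn on top of each other, lie above every paired peak of the loci.

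Without a partner in the other FOXA1 list were 6 of 15 full-length peaks at PTPRM, 10 of 16 at COL22A1 and 3 of 3 at NKX1-1, beside 44.0% in the whole list. For FOXA1dCTD they were 16 of 25, 8 of 14 and 3 of 3, beside 58.3%. For FOXA1 at full length and after CTD deletion, the shares at PTPRM were 40.0% (19.8 to 64.3) and 64.0% (44.5 to 79.8), and at COL22A1 62.5% (38.6 to 81.5) and 57.1% (32.6 to 78.6). The intervals cover counting error over peaks only. The rule used this contrast, so nothing is read from these counts.

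Some unpartnered FOXA1 peaks were in lists of other factors, at shares on both sides of those of the whole lists. At PTPRM 4 of the 6 full-length and 10 of the 16 FOXA1dCTD peaks without a partner were in another list, every time that of a FOXA2 form. At COL22A1 these were 5 of 10 and 3 of 8, and at NKX1-1 0 of 3 and 3 of 3. Over the whole lists, 44.0% of such full-length peaks and 51.7% of such FOXA1dCTD peaks were in another list. FOXA2 lists were frequent there too. Of such full-length peaks 27.7% were in the full-length FOXA2 list and 27.6% in that of FOXA2dCTD. Of such FOXA1dCTD peaks these shares were 33.4% and 36.3%. With so few peaks per locus, no difference from the whole lists is read from these counts.

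**Figure D4:**
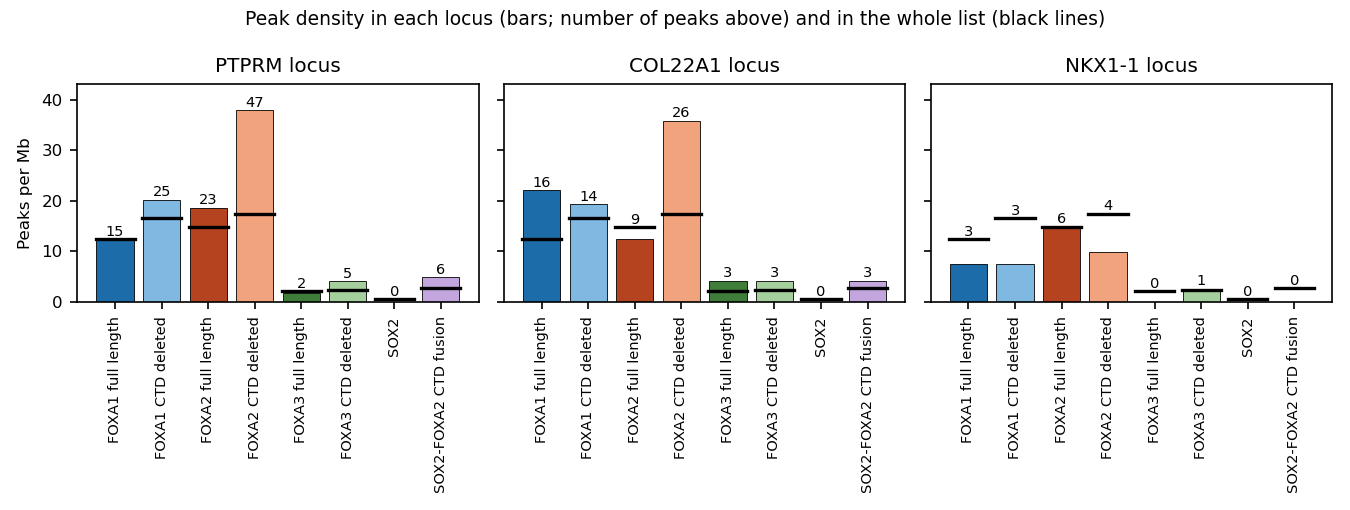
Peaks per Mb of window (bars, with the number of peaks above each) in the 3 loci for the 8 lists, with the density of the whole list as a black line. FOXA2 CTD deleted stands above its line at PTPRM (37.9 against 17.4) and COL22A1 (35.8). SOX2 has no peak in any of the 3 windows, but its whole list has only 0.451 peaks per Mb, so this absence says little.

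Measured per Mb of window, full-length FOXA1 was at 12.1 peaks at PTPRM and 7.43 at NKX1-1, against 12.3 over chromosomes 1 to 22 and X, and at COL22A1 it was at 1.79 times that level. FOXA1dCTD was at 20.2, 19.3 and 7.43, against 16.5. At NKX1-1 this rests on 3 peaks per list and is common among genes: 63.4% and 63.3% of gene windows had a higher density for full-length FOXA1 and FOXA1dCTD. The full-length list holds peaks up to an IDR of 0.200 and the FOXA1dCTD list up to 0.0501. At the stricter limit the full-length densities were 2.42, 8.27 and 0 in the order PTPRM, COL22A1 and NKX1-1. As deposited, FOXA2dCTD had the highest density of the 8 lists at PTPRM and COL22A1, 37.9 and 35.8, against 17.4 in its whole list. These are 2.17 and 2.05 times the density of its whole list, a level of 2 times or more that 9.30% of 19974 protein-coding gene windows reached. That order depends on the limits of the lists, since FOXA2dCTD holds peaks up to an IDR of 0.250. At an IDR of at most 0.01 in every list it reverses, with FOXA1dCTD at 11.3 and 13.8 and FOXA2dCTD at 4.84 and 5.51 at PTPRM and COL22A1. The whole lists reverse as well, with 26826 FOXA1dCTD and 6523 FOXA2dCTD peaks left, so the reversal is not particular to these loci. Whether FOXA2dCTD stays above the density of its whole list at this limit was not computed.

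The relatives of the 3 genes put the leading peaks in context. Of the 4 receptor phosphatases of the PTPRM type (PTPRM, PTPRK, PTPRT and PTPRU), all had unpartnered peaks of both FOXA1 lists. Such peaks are common, with 16363 at full length and 29203 after CTD deletion over 3030 Mb. All 10 collagens below had both kinds, and of the 14 NKX genes 13 had full-length and 12 FOXA1dCTD ones. The share over all genes was not computed, so these counts say nothing particular about the families. Outside PTPRM the strongest at full length was 4.35, near PTPRK, and after CTD deletion each of the 3 others reached 5.41. Among 10 collagens of the COL22A1 kind, the strongest unpartnered full-length peak near the other 9 was 9.47, near COL9A2, and the strongest FOXA1dCTD one 20.0, near COL14A1. Among 14 NKX genes the strongest outside NKX1-1 were 7.35 near NKX6-2 and 10.8 near NKX2-5. That unpartnered peaks near the relatives were weaker than the leading ones is fixed by the choice of the loci.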

How the data were processed

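Flag ChIP-seq of 17 U2OS samples was represented by 14 peak lists, of which 10 were used and 4 were byte-for-byte copies. Per the submitters' processing notes, Bowtie2 2.4.4, MACS2 and hg38 were used; peak calling settings and IDR limits are not given in the sources used here. Each group has 1 combined list of both replicates in the layout of the IDR program (irreproducible discovery rate, the agreement of ranks between replicates). From the deposited lists the summit, the IDR score, −log10 IDR and the −log10 p in either replicate were taken, the last without a replicate number. Full-length FOXA3 shares many identical rows with FOXA3dCTD. For SOX2 and the fusion, first-replicate lists with the authors' fold enrichment ratio, −log10 p and −log10 q were used in the closing section only.

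Overlap, merging and counting were done with Python 3.11.15 and pandas 2.3.3, and checked against brute force on simulated peaks. Groups came from sample titles. Gene spans are from RefSeq GRCh38.p14, without exons, so exon or intron is not given. Forkhead words were planned for peak sequences, which were not used here, and were searched in gene start windows instead. Named peaks were the 2 strongest of each whole FOXA1 list without a partner, away from the genes of the expressed factors. Per locus, the 3 strongest of each FOXA1 list and the strongest of each other list were added. Up to 5 sites per locus in 5 or more lists were also named. The peaks at the first PTPRM start, and the peaks ranked just outside the choice, were named after their values were seen. Members and gene lists were chosen with earlier results of these data known. Alternatives were an IDR of at most 0.01, the stricter FOXA1 limit, windows of 100 and 500 kb, 50% reciprocal overlap, summits within 100 bp, strength by the higher replicate, and leaving out shared FOXA3 rows. No test between groups was made: replicate values are −log10 p, which moves with depth, and a peak absent from a list has none.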

Additional observations from a re-analysis of the deposited data

Results flagged for a closer look

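At 3 of the leading peaks the FOXA1 and FOXA2 pairs went opposite ways; the difference was not tested, and p-values depend on the unknown depth. The PTPRM peak was listed for FOXA1 at full length only, but for FOXA2 both replicates were higher after CTD deletion (at least 24.2, against at most 12.2). The farthest and nearest NKX1-1 peaks were listed for FOXA1 after CTD deletion only, but for FOXA2 both replicates were higher at full length. Full-length FOXA2 had at least 19.3 at the farthest, against at most 16.3 after CTD deletion, and at least 39.4 at the nearest, against at most 35.0. The FOXA2dCTD replicates were far apart there, 16.3 and 7.74 and then 35.0 and 7.09. The IDR of these FOXA2dCTD rows, 0.00200 and 0.00170, was still below that of the full-length FOXA2 rows, 0.0145 and 0.0170. At the middle peak of the same row the FOXA2 values overlapped, with 36.6 and 67.4 at full length and 47.1 and 6.85 after CTD deletion.

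Lists of the first replicate alone, used for no comparison above, held peaks in 2 of the loci. At PTPRM there were 10 for SOX2 and 28 for the fusion, and at COL22A1 4 and 8. The first-replicate lists are far longer than the combined ones, 13977 against 1375 peaks for SOX2 and 42705 against 7895 for the fusion. Per Mb, SOX2 was at 8.07 at PTPRM and 5.51 at COL22A1, against 4.55 in its whole first-replicate list. The fusion was at 22.6 at PTPRM, and at COL22A1 with 8 peaks it was below the 14.0 of its whole list. The combined lists held 0 SOX2 peaks at both loci, and 6 and 3 fusion peaks. None of these peaks lay at the PTPRM or COL22A1 peak that led the choice.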

How the results depend on the processing

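No paired analysis was possible because the replicate columns carry no number. Leaving out a replicate was not run, since the deposited lists hold only peaks that rest on both. For 39 results, 125 alternative values were computed. Shares that kept to the counting interval, and counts and densities that kept to a factor of 1.5, made up 95 of them, and 30 moved further. An IDR of at most 0.01, which leaves fewer peaks by construction, moved most. It left 0 of all 45076 full-length FOXA2 peaks. Full-length FOXA1 then had 1.61 peaks per Mb at PTPRM, 2.76 at COL22A1 and 0 at NKX1-1, and FOXA1dCTD 11.3 at PTPRM, above the 4.84 of FOXA2dCTD, which is the reverse of the deposited order. Of the FOXA1dCTD peaks 92.9% at PTPRM and 90.0% at COL22A1 then lacked a partner, and 100% of the NKX1-1 sites were in 2 or more lists (3 of 3). The whole lists then hold 3438 full-length FOXA1 and 26826 FOXA1dCTD peaks, so few FOXA1dCTD peaks can have a partner anywhere. The whole FOXA2dCTD list then holds 6523 peaks, so its order with FOXA1dCTD is reversed over the whole lists too. Shares over all peaks and sites at this limit were not computed, so nothing particular to the loci is read from these values. The COL22A1 peak was then in 0 of the 6 other lists, and the middle and farthest NKX1-1 peaks in 1 each. Full-length FOXA1 had no peak left at NKX1-1, so its share there has no value. The stricter FOXA1 limit gave full-length densities of 2.42, 8.27 and 0. Windows of 100 and 500 kb gave 14.7 and 3.99 FOXA1dCTD peaks per Mb at NKX1-1. With summits within 100 bp the COL22A1 peak was in 0 other lists. With strength by the higher replicate, 0 of the 4 leading peaks led their direction. Leaving out shared FOXA3 rows for the leading peaks was chosen after seeing the data and changed no count by over 1.5 times. The causes of the other changes were not tested.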

Other observations

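Among peaks called in the first replicate alone, that of SOX2 with the highest −log10 p at PTPRM was chr18:8119205-8119482, with 7.71 and a deposited fold enrichment of 5.42. The strongest fusion peak, chr18:7520948-7521396, had 7.98 and 5.52 and lay where FOXA3dCTD and both FOXA2 forms had a peak. The SOX2 and fusion lists of the first replicate had no peak at all in the NKX1-1 window. It measures only 0.404 Mb, and the whole lists have 4.55 and 14.0 peaks per Mb. Of the 28 fusion peaks at PTPRM, 3 were in the combined fusion list and 4 overlapped a FOXA peak.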
